A study of Gallus gallus with 8 samples.

Results

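Genes that build triglyceride and package it into lipid droplets were examined in the liver of broiler chickens (Gallus gallus) raised under low or high stocking density. The genes were chosen by symbol, as the rows of the authors' deposited comparison named GPAM, AGPAT2, LPIN1, LPIN2, DGAT1, DGAT2, PLIN2, PNPLA2 or PNPLA3 that had a group mean above 0. Of these 9 symbols, 8 had such a row among the 23613 rows of the table. DGAT1 was not matched by its symbol and is not analysed here.

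The birds were labelled male and their livers were taken on day 46. Group A, the control for crowding, was stocked for an end point of 24.4 kg/m2 (5 lb/ft2), and group D for 39.1 kg/m2 (8 lb/ft2). Each group had 4 RNA sequencing libraries, and each library held pooled RNA of 4 birds, so that a group stood for 16 birds and differences between single birds within a pool were not measured. The labels name no other agent, genotype or strain, and the comparison asks how the liver responds to crowding.

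In birds the liver is the main site of fatty acid synthesis, and much of what it makes is esterified to glycerol and exported in lipoproteins or stored in droplets. Acyl groups are added to glycerol-3-phosphate in steps: GPAM, on the outer membrane of mitochondria, catalyses the first, AGPAT2 in the endoplasmic reticulum the next, and lipins remove the phosphate to leave diacylglycerol. DGAT1 and DGAT2, unrelated in sequence, add the last acyl chain, PLIN2 coats the droplet that forms, and the lipase PNPLA2 starts its breakdown.

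The RNA of PLIN2, the gene of the droplet coat protein, was 1.58-fold higher at high density. PLIN2 was the 1 of the 8 genes that passed an adjusted p of 0.05 in the authors' deposited table. Values here and below are of RNA, and protein was not measured. DGAT2, the enzyme of the last step of triglyceride synthesis, had a larger fold of 1.73 and an adjusted p of 0.0516, just outside that threshold, in the same deposited table. GPAM, the enzyme of the first step, had a fold of 1.35 with an adjusted p of 0.832 in the deposited table. The intermediate enzymes AGPAT2, LPIN1 and LPIN2 and the droplet lipases PNPLA2 and PNPLA3 did not pass, with sizes of change between 1.05-fold and 1.19-fold.

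Against these counts, 55 of the 20170 genes with a value were called over the whole deposited table (0.273%), of which 32 were higher at high density (0.159%) and 23 lower (0.114%). The 1 call among 8 genes is 12.5%. At an unadjusted p under 0.05 there were 3 of the 8 genes, all higher (37.5%), where the deposited table has 1126 genes in all (5.58%), with 2.46% of genes higher and 3.12% lower. These shares describe the 8 genes, which were chosen with earlier results of these data known. As a group, 4 were higher and 4 lower. Their median on the log2 scale was -0.002, beside 0.001 over all genes with a value and -0.008 over the 10867 genes whose larger group mean reached 1.

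The authors' deposited table holds no value for any single library, so neither the values of the 4 pools of a group nor their overlap with those of the other group can be given here. For each gene it gives the larger of the group means, on a scale the header does not name. The other group's mean was obtained by applying the fold change to it, on the assumption that both are on 1 scale. Since it is not stated whether the scale corrects for gene length, levels are compared between groups for the same gene. Where a gene is named below for the highest or lowest mean of its list, or means are summed over a marker list, that describes the deposited scale and not the order of transcript levels. Standard errors were likewise computed, by dividing the size of the log2 fold change by the normal quantile that its two-sided p implies. That holds for a Wald test, and the table does not say which test was used. They are called implied errors below, and the 95% intervals made from them implied intervals. The p-values rest on pooled libraries and not on single birds, and the depth of the libraries is unknown. It is also not stated whether the test took the spread from each gene alone or shared it across genes. A p or an implied error is therefore not read here as the observed spread of that gene between pools.

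**Figure D1:**
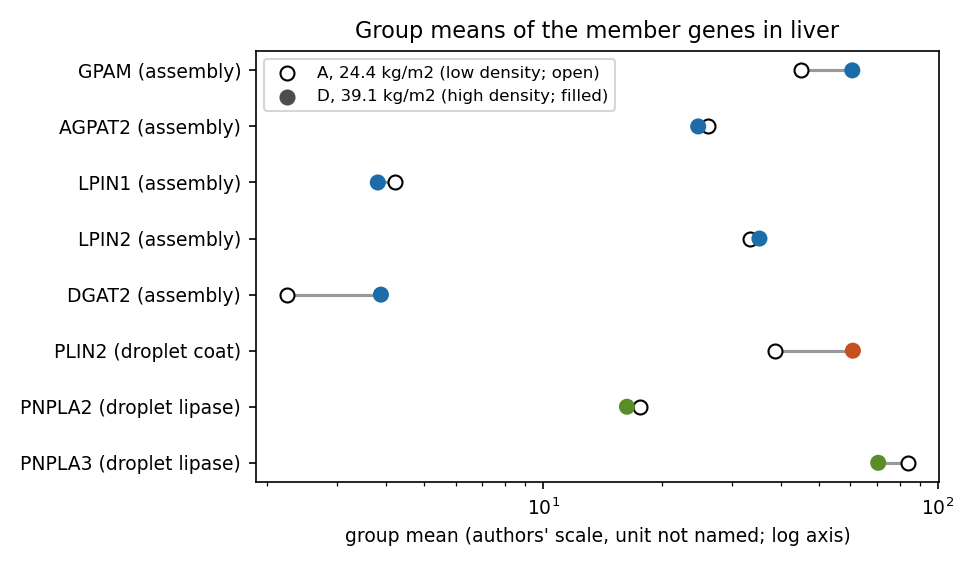
Group means of the 8 genes in liver at low density (A, open points) and high density (D, filled points, coloured by role), on the authors' unnamed scale with a log axis; the lower mean of each gene was computed from the deposited fold change. PLIN2 (38.6 and 60.9), DGAT2 (2.24 and 3.88) and GPAM (44.9 and 60.7) show the widest gaps, all higher in D, while the points of AGPAT2 and LPIN2 nearly touch.

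The assembly enzymes are taken in the order of the pathway. GPAM (ENSGALG00000008795, GRCg6a chromosome 6, 27574464 to 27600048, minus strand) had, in the authors' deposited table, a mean of 60.7 at high density and a computed mean of 44.9 at low density. Its deposited log2 fold change was 0.44, with an implied SE of 0.189 and an implied interval of 0.06 to 0.81, that is 1.05-fold to 1.75-fold. The unadjusted p in the authors' deposited table was 0.0213, which ranked 601 among 20170 genes. Changes of this size or larger, in either direction, were found in 520 of the 10867 genes whose mean reached 1 (4.79%).

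AGPAT2 (ENSGALG00000023517, chromosome 17, 8036089 to 8043918, plus strand), which turns lysophosphatidate into phosphatidate, had a deposited mean of 26.1 at low density and a computed mean of 24.7 at high density. The deposited log2 fold change was -0.08, with the smallest implied error of the 8 genes, 0.112. Its implied interval ran from -0.30 to 0.14, so that a rise of more than 1.10-fold or a fall to less than 0.813 of the low density mean lies outside it. In the authors' deposited table the adjusted p of AGPAT2 was 1.0, and 57.2% of the genes whose mean reached 1 had changes as large or larger.

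The lipins, phosphatidate phosphatases that produce diacylglycerol, had values of opposite sign, and neither passed. LPIN1 (ENSGALG00000016456, chromosome 3, 97402679 to 97470693, plus strand), which in mammals also acts as a nuclear coactivator, had a deposited mean of 4.22 at low density and a computed mean of 3.81 at high density. Its deposited log2 fold change was -0.15, and its implied error of 0.242 was the widest of the 8. The implied interval of LPIN1, from -0.62 to 0.33, thus still held a fall to 0.651 of the low density mean and a rise of 1.26-fold. LPIN2 (ENSGALG00000014836, chromosome 2, 100992993 to 101029049, plus strand) had a deposited mean of 35.3 at high density, a computed mean of 33.5 at low density and a deposited log2 fold change of 0.07. Its implied interval was -0.25 to 0.40, and the adjusted p of both lipins was 1.0 in the authors' deposited table. The intervals of LPIN1 and LPIN2 overlap over most of their length, and the difference between them was not tested.

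DGAT2 (ENSGALG00000040418, chromosome 1, 196969914 to 196986048, plus strand), which joins diacylglycerol and an acyl-CoA to triglyceride, had, in the authors' deposited table, a mean of 3.88 at high density and a computed mean of 2.24 at low density, a difference of 73.0% of the low density mean. Its deposited log2 fold change of 0.79 was the largest of the 8 genes, with an implied SE of 0.207 and an implied interval of 0.39 to 1.20 (1.31-fold to 2.29-fold). The unadjusted p was 0.00013, rank 58 of 20170 in the deposited table, and 123 genes whose mean reached 1 (1.13%) changed as much or more. The deposited adjustment counts the 3443 rows without any value among the tests. With the adjustment made over the 20170 genes that have a value, the adjusted p of DGAT2 was 0.0441, and over the genes whose mean reached 1 it was 0.0302, so that its call rests on which rows are counted.

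PLIN2, also known as adipophilin, is the perilipin that covers droplets in most cells outside fat tissue. The gene (ENSGALG00000015090, chromosome Z, 33602917 to 33617017, minus strand) had a deposited mean of 60.9 at high density and a computed mean of 38.6 at low density, a difference of 57.8%. The deposited log2 fold change was 0.66 with an implied SE of 0.167, and the implied interval of 0.33 to 0.99 corresponds to 1.26-fold to 1.98-fold. In the authors' deposited table its p was 8.08e-05 (rank 53 of 20170) and its adjusted p was 0.036. This call lies near the end of the list of called genes, whose largest unadjusted p was 9.24e-05, and the Bonferroni-adjusted p of PLIN2 in the deposited table was 1.0. Changes at least as large, in either direction, were found in 192 of the 10867 genes whose mean reached 1 (1.77%).

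PLIN2 lies on the Z chromosome, of which male birds carry a pair of copies and females a single one. The 481 Z genes whose mean reached 1 had a median log2 fold change of -0.02, beside -0.01 for the 10362 autosomal genes. Of the Z genes, 5 (1.04%), PLIN2 among them, had a positive value as large as that of PLIN2 or larger. That share counts rises only and cannot be set against the share over all genes above, which counts both directions. The W chromosome, found in females, had values for 92 genes although the birds were labelled male. Of these, 70 were higher at high density, but most of the 92 had a mean under 1, where direction is poorly measured. The 8 whose mean reached 1 were all higher (median log2 fold change 0.87). Of the 92, 0 were called, which says little where 0.273% of all genes were called. At a deposited unadjusted p under 0.05, 8 of the 92 were higher and 2 lower, beside 2.46% and 3.12% of all genes. None of these was among the 8 whose mean reached 1. The part of sex in the PLIN2 difference was not tested.

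The droplet lipases had values slightly lower at high density, and neither passed. PNPLA2 (ENSGALG00000014569, chromosome 5, 15965565 to 15987045, minus strand), the adipose triglyceride lipase that removes the first acyl chain, had a deposited mean of 17.6 at low density and a computed mean of 16.3 at high density. Its deposited log2 fold change was -0.12 (implied SE 0.127, implied interval -0.36 to 0.13), with an adjusted p of 1.0 in the authors' deposited table. PNPLA3 (ENSGALG00000029308, chromosome 1, 69044299 to 69089535, plus strand), a droplet-bound relative of PNPLA2 studied in human fatty liver, had a deposited mean of 84.0 at low density and a computed mean of 70.6 at high density. The deposited log2 fold change was -0.25 (implied SE 0.152, implied interval -0.55 to 0.05), with an unadjusted p of 0.0995 and an adjusted p of 1.0 in the authors' deposited table. PNPLA3 had the lowest log2 fold change of the 8 genes, and 14.4% of the genes whose mean reached 1 changed as much or more. It shares 554 bases with SULT4A1 on the other strand, for which the authors' deposited table gives a mean of 0.75 and a log2 fold change of 0.23. No source used here says whether counting used strand, so reads of the shared stretch cannot be told apart.

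**Figure D2:**
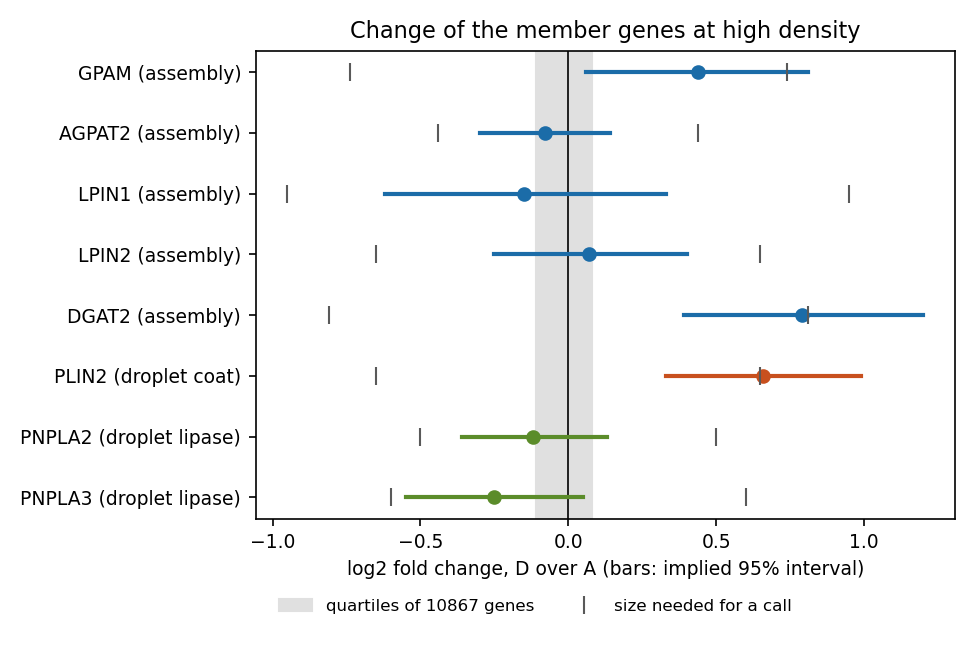
Deposited log2 fold changes of the 8 genes (points, D over A) with implied 95% intervals (bars); grey ticks mark the size at which each gene would have reached the largest p among called genes, and the shaded band spans the quartiles, -0.11 to 0.08, of the 10867 genes whose mean reached 1. PLIN2 at 0.66 lies just past its tick at 0.65 and DGAT2 at 0.79 just short of its tick at 0.81, while 5 of the 8 intervals hold 0.

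The implied errors set about how large a change each gene needed to be called. At the largest unadjusted p among called genes, AGPAT2 would have needed a log2 change of 0.44 in size (1.36-fold), PNPLA2 0.50, PNPLA3 0.60, LPIN2 and PLIN2 0.65, GPAM 0.74, DGAT2 0.81 and LPIN1 0.95 (1.93-fold). The gene with that p, GNLY, had an adjusted p of 0.0396 in the deposited table. A somewhat larger p could therefore also have been called, and these sizes are somewhat too high. Differences well below them were not detectable as calls with these libraries, and the absence of a call does not show that a gene was unchanged. In order of the deposited log2 fold change the genes ran from DGAT2 through PLIN2, GPAM, LPIN2, AGPAT2, PNPLA2 and LPIN1 to PNPLA3. Each gene's implied interval overlaps that of its neighbour in this order, so the order of neighbours is not resolved. The implied intervals of DGAT2 (0.39 to 1.20) and PLIN2 (0.33 to 0.99) lie above those of AGPAT2, PNPLA2 and PNPLA3, which end at 0.14, 0.13 and 0.05. The difference between genes was not tested, since their errors come from the same libraries.

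**Figure D3:**
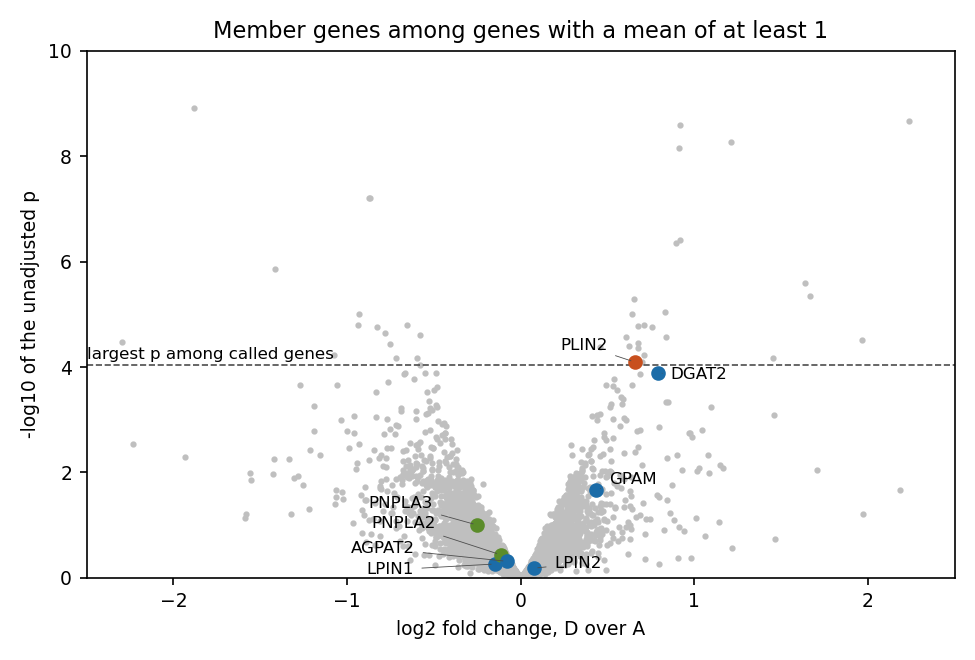
Deposited log2 fold change (D over A) against the -log10 of the unadjusted p for genes whose mean reached 1 (grey, 10864 drawn, 3 outside the axes or with a p of 0) and the 8 named genes (coloured by role); the dashed line marks the largest p among called genes, 9.24e-05. PLIN2 lies just above the line, DGAT2 just below it, GPAM lower on the same side, and the other 5 near the base.

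The 8 genes lie on 7 chromosomes and, apart from PNPLA3, no gene model of the table overlaps them. DGAT2 and PNPLA3, both on chromosome 1, are 128 megabases apart. Genes next to PLIN2 and DGAT2 were not called. HAUS6, a subunit of the augmin complex of the spindle, starts 438 bases beyond the end of PLIN2 on the same strand and had a deposited log2 fold change of 0.09. DENND4C on the other side of PLIN2 had a value of -0.49, opposite in sign, with an adjusted p of 0.134 in the authors' deposited table. DGAT2 is next to MOGAT2, a monoacylglycerol acyltransferase of the same enzyme family, 13872 bases away on the same strand. The deposited mean of MOGAT2 was 0.00753, too low for its fold change to be read. The span of the 8 gene models runs from 7830 bases for AGPAT2 to 68015 for LPIN1.

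No related gene of the wider pathway was called, where 0.273% of all genes with a value were called. At so low a share, the absence of a call in a list of this length says little about the pathway. Of 117 further symbols in 11 roles, 88 had a value. The other 29 had no row under that symbol or a row with every value at 0, which were not counted apart. The smallest adjusted p among the 88 was 0.399 in the authors' deposited table, and 3 had an unadjusted p under 0.05 (3.41%), below the 5.58% of all genes. In all, 52 were higher and 36 lower (median log2 fold change 0.025). The 3 genes were ACSL3, an acyl-CoA synthetase found on droplets (log2 fold change 0.31, implied SE 0.133), ETNK1, an ethanolamine kinase of the phospholipid branch (-0.41, implied SE 0.163), and PPARGC1A, a transcriptional coactivator of oxidative metabolism (-0.77, implied SE 0.262). In the authors' deposited table their adjusted p stood at 0.82, 0.711 and 0.399.

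Among genes that feed the first step, the acyl-CoA synthetases were higher in 3 of 4 cases (median 0.12), and glycerol supply genes in 5 of 7 (median 0.05), with none of either called. ACSL1, a long-chain acyl-CoA synthetase, had a log2 fold change of 0.03, and AQP9, the channel through which liver takes up glycerol, one of 0.02, both as deposited. GPD1, which makes glycerol-3-phosphate and is named here after its value was seen, had a deposited log2 fold change of 0.69 with a wide implied error of 0.372 and an unadjusted p of 0.0647. Its deposited gene model spans 700 bases, where the shortest of the 8 genes spans 7830, and whether it holds the whole gene was not checked. The other acyltransferases of the early steps were higher in 6 of 8 cases (median 0.08). The alternative glycerol-3-phosphate acyltransferases GPAT3 (0.16) and GPAT4 (0.01) had deposited unadjusted p-values of 0.375 and 0.915. AGPAT3, with the highest mean of that role, had a deposited log2 fold change of -0.15, and PLPP3, the phosphatase with the highest mean of its own, one of -0.11. The list of phosphatases other than the lipins had 4 genes with a value: PLPP1, PLPP2, PLPP3 and CNEP1R1, a regulatory subunit. Of these 4 genes, 3 were lower (median -0.10).

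In the list of droplet formation and coat genes, which does not include ACSL3, none was called or had an unadjusted p under 0.05. Of 21 listed, 9 had a value, 5 higher and 4 lower (median 0.02). The 12 symbols without a value include PLIN3, PLIN5, CIDEB, HILPDA, BSCL2, HSD17B11 and HSD17B13, so the absence of a call does not cover these genes. PLIN1, the perilipin of fat cells, had a log2 fold change of 0.33 (implied interval -0.06 to 0.72) and PLIN4 one of 0.14 (-0.18 to 0.47) in the authors' deposited table. CIDEA (0.02) and CIDEC (0.04), which promote droplet fusion in mammals, had implied intervals of -0.25 to 0.28 and -0.26 to 0.34. METTL7A, a droplet-associated protein with the highest mean of the role, had a deposited log2 fold change of -0.13. These values were not tested against that of PLIN2. Its implied interval of 0.33 to 0.99 overlaps those of PLIN1, PLIN4, FITM2 (-0.12 to 0.44) and, barely, CIDEC.

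Genes of lipolysis and its regulators, other than PNPLA2 and PNPLA3, had higher values in 10 of 11 cases (median 0.14). Among all genes whose mean reached 1, 47.8% were higher. The list mixes lipases with an inhibitor, so its count of higher values gives no direction for lipolysis. None was called or had an unadjusted p under 0.05. The largest value was that of G0S2, an inhibitor of PNPLA2, at 0.47 with an implied interval of -0.13 to 1.07 in the authors' deposited table, named here after it was seen. MGLL, the lipase of monoacylglycerol, had a value of 0.01, and AADAC, a hepatic esterase with the highest mean of the role, one of -0.03 in the same deposited table. Of 4 genes of lipoprotein export 3 were higher (median 0.08). MTTP, which loads lipid onto apolipoprotein B, had a deposited log2 fold change of 0.22 (implied interval -0.05 to 0.50), APOB one of 0.09 and TM6SF2 one of -0.25.

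Branches that draw on the same intermediates held values of both signs, some of them from genes with very low means. Phospholipid genes were higher in 6 and lower in 9 of 15 cases (median -0.02), with PEMT, which methylates phosphatidylethanolamine, at 0.05 in the authors' deposited table. Diacylglycerol kinases were higher in 4 and lower in 5 of 9 cases (median -0.003), with DGKZ at -0.05. Of the 4 higher, DGKB, DGKG and DGKI had deposited means of 0.0121, 0.113 and 0.00644, too low for their direction to be read. A mean of at least 1 was reached by 5 of the 9, and among those only DGKA (0.20) was higher. In the monoacylglycerol and sterol ester role 1 of 3 was higher (median -0.06). That gene was MOGAT2, whose mean of 0.00753 is too low for its direction to be read. The 1 gene of this role whose mean reached 1 was SOAT1, which esterifies cholesterol, with a deposited value of -0.06. Of the 14 regulators 8 were higher (median 0.02). The lipogenic factors SREBF1 and MLXIPL had deposited log2 fold changes of 0.18 and 0.17 (implied intervals -0.08 to 0.45 and -0.08 to 0.41), THRSP one of 0.08, PPARA one of -0.06 and PPARG one of -0.16, none with an unadjusted p under 0.05 in the deposited table.

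**Figure D4:**
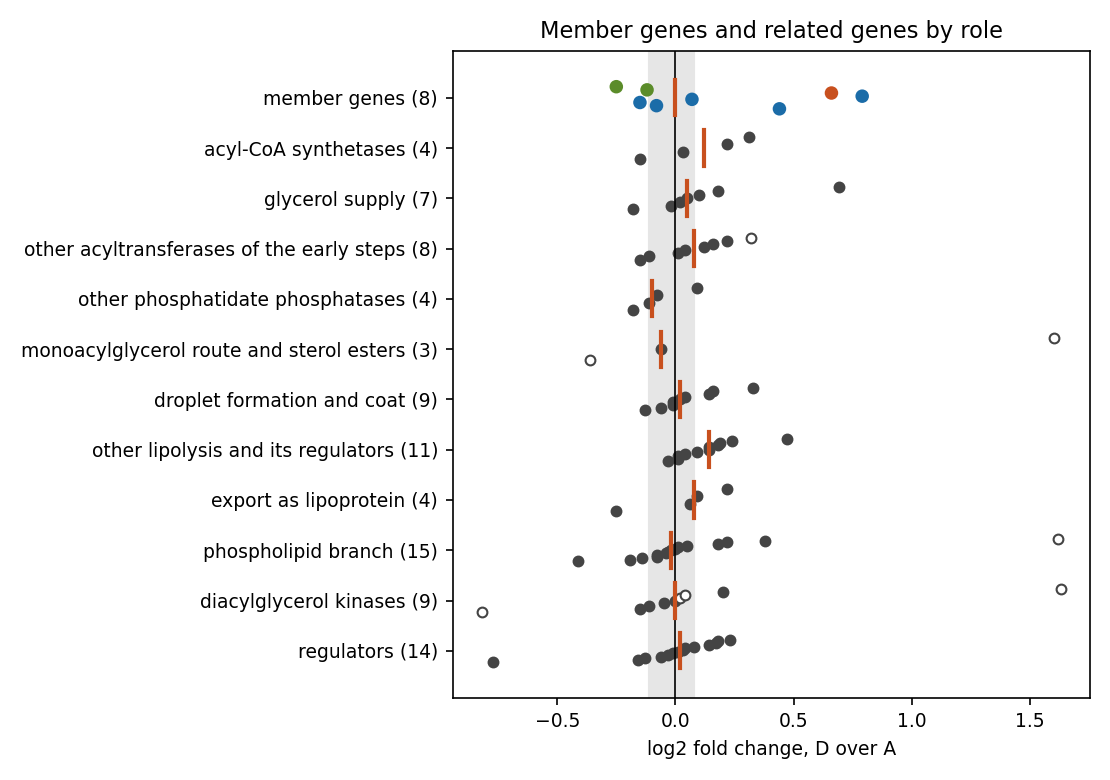
Deposited log2 fold changes (D over A) of the 8 named genes, coloured by step, and of 88 related genes by role, with the number of genes with a value in brackets; open points have a mean under 1, orange bars are medians and the band spans the quartiles of all genes whose mean reached 1. The medians of the roles lie between -0.10 and 0.14, and DGAT2 (0.79) and PLIN2 (0.66) lie beyond the related genes whose mean reached 1, except GPD1 (0.69) on the high side, which lies between them.

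For the liver label, 14 hepatocyte markers were looked up, and all of them had a value. The same holds for 20170 of the 23613 rows, so having a value does not check the tissue. The summed mean of the 14 markers was 74094 at low and 72382 at high density. The plasma proteins ALB, TTR and APOA1 had deposited means of 36025, 6018 and 12425, and CPS1 had the lowest mean of the list, 0.815. Fat cells also express PLIN2, DGAT2 and GPAM. Of 9 adipocyte markers 8 had a value, 2 higher and 6 lower, with summed means of 363 at low and 348 at high density, and no marker with a row was listed at 0. The fat cell hormone ADIPOQ had a deposited mean of 0.507 and the fatty acid carrier FABP4 one of 0.287, both at low density, with computed means of 0.28 and 0.2 at high density. At means this low their direction is poorly measured. The other markers with a row were CFD, CD36, CIDEC, LPL, PLIN1 and PPARG, of which PLIN1 (computed mean 1.94 at low and deposited mean 2.44 at high density) and CIDEC (47.4 and 48.8) were higher at high density. LPL was lower at high density, with a deposited mean of 17.1 at low and a computed mean of 13.3 at high density. Its unadjusted p was 0.0296 and its adjusted p 0.917 in the authors' deposited table. Most of the summed means came from CFD (190 at low and 180 at high density) and CD36 (103 and 101). The part of fat cells in the PLIN2, DGAT2 and GPAM values was not tested.

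Markers of other cell types differed in value between the groups, with 1 of them called, GNLY of the T and NK list, lower at high density. Heterophil markers had values in 8 of 10 cases, 7 of them higher (median 0.74, summed means 94.1 at low and 103 at high density). Most of these sums came from LYG2, the heterophil marker that was lower (65.1 at low and 53.7 at high density). Erythroid markers had values in 8 of 11 cases, 7 of them higher (median 0.32, 291 and 416). Most of these sums came from the globins HBBA (134 at low and 208 at high density) and HBA1 (138 and 187). All 10 T and NK cell markers with a value, of 12, were lower (median -0.39, 70.5 and 52.2), as were all 6 macrophage markers with a value, of 7 (median -0.07, 398 and 370). Stellate and fibroblast markers were lower in 8 of 10 cases (366 and 330) and cholangiocyte markers in 5 of 6 (61.8 and 50.9). None of these lists had a marker with a row listed at 0. In RNA of whole liver, fewer cells of a type and less RNA per cell cannot be told apart, and the part of these cell types in the PLIN2 and DGAT2 values was not tested.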

How the data were processed

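Liver RNA of 8 pooled libraries, 4 per density group, was compared by the authors. The deposited table gives, per the file headers, for each gene the larger group mean on another scale that is not named, a log2 and a signed fold change, and a p-value with 2 adjusted forms. Per the submitters' processing notes, the build was GRCg6a. The sources used here do not give the aligner, counting method, normalization or test. The table holds 0 columns of values per library, so depth is unknown and no test of the groups was run. This departs from the planned count or normalized-value tests, with the authors' own comparison as the planned fallback. Rows with every value at 0 (3443) were left out. The deposited adjusted p is a Benjamini-Hochberg adjustment over all 23613 rows (largest difference on recomputing 2.40e-05). A call is a deposited adjusted p under 0.05. Means, intervals and alternatives were computed with Python 3.11.15, pandas 2.3.3 and scipy 1.17.1. The code for the adjustment and the implied errors and intervals was run on simulated data. Those data were made with a Wald test, so they cannot show whether the intervals hold for the authors' test. The 9 symbols, the related gene lists and the markers were chosen with earlier results of these data known. Besides the 9, the text names related genes with an unadjusted p under 0.05, the gene with the highest mean of each role, and others picked after their values were seen (such as PLIN1, PLIN4, CIDEA, CIDEC, GPAT3, GPAT4, G0S2, GPD1, MGLL, MTTP, TM6SF2, SREBF1, MLXIPL, PPARA and PPARG).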

Additional observations from a re-analysis of the deposited data

How the results depend on the processing

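Subtracting the median of genes whose mean reached 1 (-0.008) was too small a shift to turn the sign of any of the 8 genes, so it says nothing about their stability. The number of the 8 genes called was 1 as deposited. It was 2, PLIN2 and DGAT2, when the adjustment covered genes with a value or genes whose mean reached 1 and at an adjusted p under 0.1, and 0 at an adjusted p under 0.01 or after the Bonferroni adjustment. PLIN2 had adjusted p-values of 0.0308 and 0.0209 under the 2 recomputed adjustments. Over all genes the 55 calls became 63 and 58 under these, 78 at 0.1, 20 at 0.01 and 16 after Bonferroni. The count of related genes called was 0 under each of these settings. Without genes of a mean under 1, the median log2 fold change of the related genes was 0.020 in place of 0.025. That of all genes was -0.008 in place of 0.001. Each of the 8 genes had a mean of at least 1, so their median could not move. No paired analysis was possible because the deposited table holds no values per library, and for the same reason leaving out replicates, other normalizations and pseudocounts were not run.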
